A study of Mus musculus with 89 samples.

Results

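The transcription factor Nrf2, encoded by Nfe2l2, and 9 of its antioxidant target genes (Hmox1, Nqo1, Gclc, Gclm, Txnrd1, Srxn1, Slc7a11, Gsr and Prdx1) were followed in mouse lung across every material, dose and challenge of the study. The 10 genes were taken by name: all array probes whose accession maps to these symbols were used, which gave 14 probes, and the rule itself uses no measured value. The genes were, however, chosen with earlier results of these data known. They are 10 of the 22911 genes measured on the arrays. The question of the study was how core copper oxide (CuO) nanomaterial and 3 surface-functionalized forms of it (carboxylated CuO COOH, CuO NH3 and polyethylene glycol-coated CuO PEG) affect healthy lungs and lungs with allergic airway inflammation. Female BALB/c mice of 6–8 weeks were all sensitized to ovalbumin (OVA) with alum on days 1 and 10, the PBS controls included. They then received PBS or OVA, alone or with a material at 2.5, 10 or 40 μg/mouse, by oropharyngeal aspiration on 4 consecutive days, and lung tissue was taken 24 h after the last dose, following bronchoalveolar lavage. "PBS-challenged" therefore means sensitized but not allergen-challenged, and groups named with "+ OVA" had both exposures. Each sample was a pool of 2 lung RNAs, and the 89 samples formed 26 groups: 7 PBS samples, 8 OVA samples, 4 samples each of CuO NH3 10 and CuO PEG 10, and 3 samples in every other group. Doses were equal in mass of the whole material and not in mass of copper.

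Nrf2 is held in the cytoplasm by Keap1, which presents it for ubiquitination and degradation by the proteasome. Electrophiles, oxidants and several metal ions modify cysteines of Keap1, newly made Nrf2 then escapes degradation, enters the nucleus, pairs with a small Maf protein and binds antioxidant response elements in its target promoters and enhancers. Bach1 competes with it for the same elements and is displaced by haem. The control acts mostly on Nrf2 protein, so the Nfe2l2 transcript is not itself a readout of Nrf2 activity. In the lung, epithelial cells and macrophages use the pathway against inhaled oxidants.

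Promoter windows reaching 250 bases before and 50 bases after an annotated start (RefSeq, mouse build GRCm38.p6) were available for 7 of the 10 genes, in 9 windows. Hmox1, Gclc and Gsr had none. The core of the antioxidant response element, TGACNNNGC, was searched on both strands. It overlaps the AP-1 motif TGANTCA, so that 1 stretch can hold both. Of the 7 genes, 5 held the core (Nfe2l2, Srxn1, Gclm, Prdx1 and 1 of the 3 Txnrd1 starts), against 14% of 27025 genes and 12.4% of 32851 windows. The windows of Slc7a11 and Nqo1 did not hold these letters. A match describes letters and not binding, and none was measured here. The windows of 4 genes whose level was called higher with core CuO are shown, and the place of the match in each is given after them. The 9-base match is in capitals, and as it lies on the opposite strand it reads GCNNNGTCA in these 5′ to 3′ runs of the gene's strand.
Srxn1 (sulfiredoxin), chr2:152105542-152105570, plus strand, just after the start: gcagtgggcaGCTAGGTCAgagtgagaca
Gclm (modifier subunit of glutamate-cysteine ligase), chr3:122245307-122245556, plus strand, the 250 bases before the start: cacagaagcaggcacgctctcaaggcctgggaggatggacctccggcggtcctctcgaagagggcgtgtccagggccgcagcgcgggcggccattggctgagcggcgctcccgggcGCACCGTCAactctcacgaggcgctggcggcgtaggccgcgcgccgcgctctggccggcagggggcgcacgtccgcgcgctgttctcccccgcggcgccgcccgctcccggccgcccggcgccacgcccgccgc
Prdx1 (peroxiredoxin 1), chr4:116685349-116685598, plus strand, the 250 bases before the start: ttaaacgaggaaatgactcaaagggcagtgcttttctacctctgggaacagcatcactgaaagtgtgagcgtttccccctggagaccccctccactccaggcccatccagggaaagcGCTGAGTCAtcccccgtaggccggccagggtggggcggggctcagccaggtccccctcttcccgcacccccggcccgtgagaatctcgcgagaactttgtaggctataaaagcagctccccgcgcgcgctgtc
Txnrd1 (cytosolic thioredoxin reductase), chr10:82858956-82859205, plus strand, the 250 bases before 1 of its starts: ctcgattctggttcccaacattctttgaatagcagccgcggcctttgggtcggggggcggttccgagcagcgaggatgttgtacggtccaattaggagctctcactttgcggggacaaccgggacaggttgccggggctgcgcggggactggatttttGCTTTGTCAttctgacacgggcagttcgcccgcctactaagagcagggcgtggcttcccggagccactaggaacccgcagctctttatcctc
The match ran from base −134 to −126 in Gclm, −133 to −125 in Prdx1, −92 to −84 in Txnrd1 and 29 to 37 after the start in Srxn1. The Prdx1 match contains TGAGTCA, an AP-1 site.

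The samples were labelled with Cy3 or Cy5 and 43 of the 46 arrays carried 2 samples. Slides 1 to 3 held the CuO and CuO COOH samples beside 3 PBS and 4 OVA controls. Slides 4 to 6 held the samples of the other 2 materials beside 4 controls of each kind, so that differences between these slide sets rest on the controls to be told from differences between slides. Between 46.7% and 68.8% of spots per sample were well above background. Levels below are log2 intensities after quantile normalization, adjusted for dye, slide and array position. A difference was called when its adjusted p (limma, Benjamini-Hochberg over all 22911 genes) was below 0.05 and its log2 fold change exceeded 0.58 in size, which is 1.49-fold. Fold changes against controls carry dye and array as terms, so they rest largely on samples that shared an array, and they can differ from the difference of the adjusted levels. In whole-lung RNA, fewer cells of a type and less RNA per cell cannot be told apart. Alveolar type 2 cell markers, as lung tissue should show, had a summed linear intensity of 268000 to 358000 in the PBS samples.

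Hmox1 (haem oxygenase 1, which splits haem into biliverdin, iron and carbon monoxide) had the widest range of group means among the 10 genes, 3.91 log2 units. The 7 PBS samples had levels of 7.63, 10.3, 9.67, 10.19, 9.35, 9.51 and 9.64. One of them, PBS replicate 1, lay well below the rest. Core CuO gave 11.42, 11.86 and 11.81 at 2.5 μg, 11.45, 11.58 and 11.71 at 10 μg, and 12.02, 12.99 and 12.38 at 40 μg. All 9 of these samples were above every PBS sample. CuO COOH gave 10.83, 10.27 and 10.66 at 2.5 μg, 11.28, 11.16 and 11.13 at 10 μg, and 12.69, 12.07 and 12.1 at 40 μg. CuO NH3 gave 10.83, 10.2 and 10.7 at 2.5 μg, 10.78, 10.65, 10.79 and 10.85 at 10 μg, and 12.08, 12.17 and 12.18 at 40 μg. For both, the lowest of the 2.5 μg samples lay within the PBS range and all samples at 10 and 40 μg lay above it. CuO PEG gave 9.27, 9.29 and 9.71 at 2.5 μg, 9.95, 9.84, 10.08 and 9.76 at 10 μg, and 10.84, 10.69 and 10.92 at 40 μg. Only the 40 μg samples of CuO PEG cleared the PBS range.

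**Figure D1:**
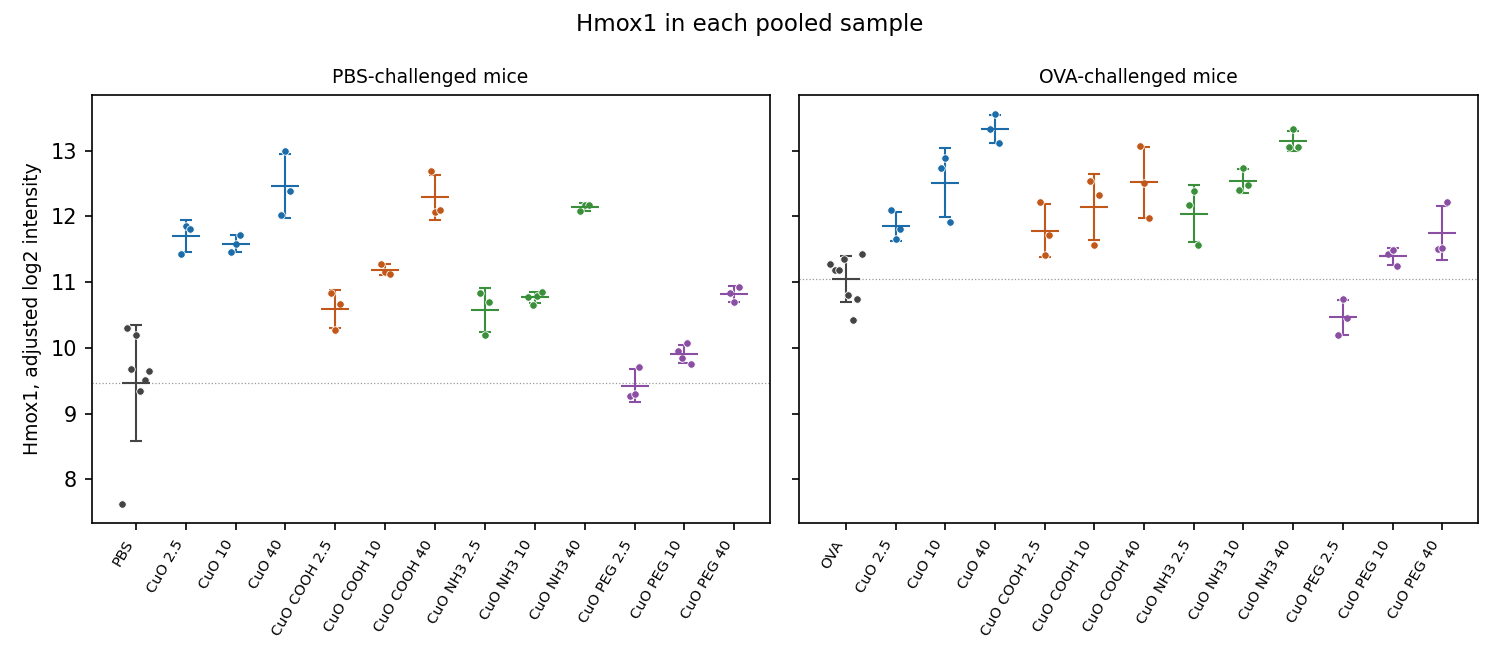
Adjusted log2 intensity of Hmox1 in each of the 89 pooled samples (y axis) by group (x axis, material and dose in μg/mouse), PBS-challenged mice on the left and OVA-challenged mice on the right; points are samples, horizontal marks group means, bars 1 SD, dotted lines the mean of the controls. PBS replicate 1 stands at 7.63, and the highest group is CuO 40 + OVA with a mean of 13.33.

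In OVA-challenged mice the controls already stood higher, with a lowest level of 10.43, a median of 11.18 and a highest of 11.42 over 8 samples. The group CuO 40 + OVA was highest of all 26, at 13.33, 13.55 and 13.12, and CuO PEG 2.5 was lowest, with a mean of 9.42 ± 0.25 (SD, n = 3). When the 26 groups were ordered by their mean, 23 of the 25 neighbouring pairs had overlapping samples. The 2 gaps lay below CuO NH3 40 + OVA and between CuO PEG 2.5 + OVA and CuO PEG 10.

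The other members moved over a much smaller range. The range of group means was 1.18 log2 units for Gclc (catalytic subunit of glutamate-cysteine ligase, the rate-limiting enzyme of glutathione synthesis), 0.7 for Gclm, 1.04 for Slc7a11 (the cystine importer that feeds glutathione synthesis) and 0.6 for Gsr (glutathione reductase). It was 0.87 for Txnrd1, 1.17 for Srxn1 (which repairs over-oxidised peroxiredoxins), 0.52 for Prdx1, 0.48 for Nqo1 (a quinone reductase) and 0.67 for Nfe2l2. Neighbouring groups in the order of means overlapped in all 25 pairs for each of these except Srxn1, where 24 of 25 did. Levels of different genes come from different probes and are not set against each other.

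Gclc in the PBS samples was 11.22, 11.49, 11.37, 11.23, 11.46, 11.55 and 11.41. CuO 10 gave 12.03, 12.38 and 12.36, CuO COOH 10 gave 12.54, 12.28 and 12.54, and CuO NH3 10 gave 12.03, 12.06, 11.88 and 11.95. All of these lay above the PBS samples. CuO PEG 2.5 gave 11.22, 11.38 and 11.44, within the PBS range, and CuO PEG 40 gave 12.29, 12.33 and 12.19, above it. Gclc did not continue to rise from 10 to 40 μg in the other materials, where the group means at 40 μg were 12.14 ± 0.15 (SD, n = 3) with core CuO, 12.22 ± 0.08 (SD, n = 3) with CuO COOH and 11.98 ± 0.1 (SD, n = 3) with CuO NH3.

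Srxn1 in the PBS samples was 9.85, 10.09, 9.83, 9.84, 9.92, 9.89 and 9.82. At 40 μg it was 10.58, 10.91 and 10.96 with CuO, 10.8, 10.7 and 10.92 with CuO COOH, 10.81, 10.82 and 10.87 with CuO NH3 and 10.3, 10.24 and 10.26 with CuO PEG. Every one of these 12 samples lay above every PBS sample. Txnrd1 in the PBS samples was 9.83, 10.26, 10.37, 10.23, 10.08, 10.29 and 10.26, and at 40 μg it was 10.65, 11.08 and 10.93 with CuO, 11.04, 10.96 and 10.93 with CuO COOH and 10.88, 10.83 and 10.97 with CuO NH3. CuO PEG 40 gave 10.63, 10.52 and 10.47 for Txnrd1, also above the PBS samples but by less.

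Slc7a11 was dim: it was well above background in 1 of 7 PBS samples and in 6 of 8 OVA samples, but in all samples of CuO 10, CuO 40, CuO COOH 10 and CuO COOH 40, so its fold changes against PBS may be understated. Its PBS levels were 5.7, 5.81, 5.65, 5.87, 5.82, 5.81 and 5.56. It was 6.56, 6.71 and 6.74 in CuO 2.5, 6.26, 6.35 and 6.36 in CuO 10 and 6.1, 6.5 and 6.21 in CuO 40. All of these lay above the PBS samples, and in these adjusted levels the lowest dose was highest. The fold change of CuO 40 against CuO 2.5, fitted with array terms, ran the other way, at 0.5 (limma, adjusted p = 0.443, not called). The order of the doses is thus not settled for Slc7a11. Nqo1 was dim too, between 6.58 and 7.1 in the PBS samples, though its probe was well above background in 87 of 89 samples. The Nqo1 samples overlapped the controls in all 24 exposed groups.

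**Figure D2:**
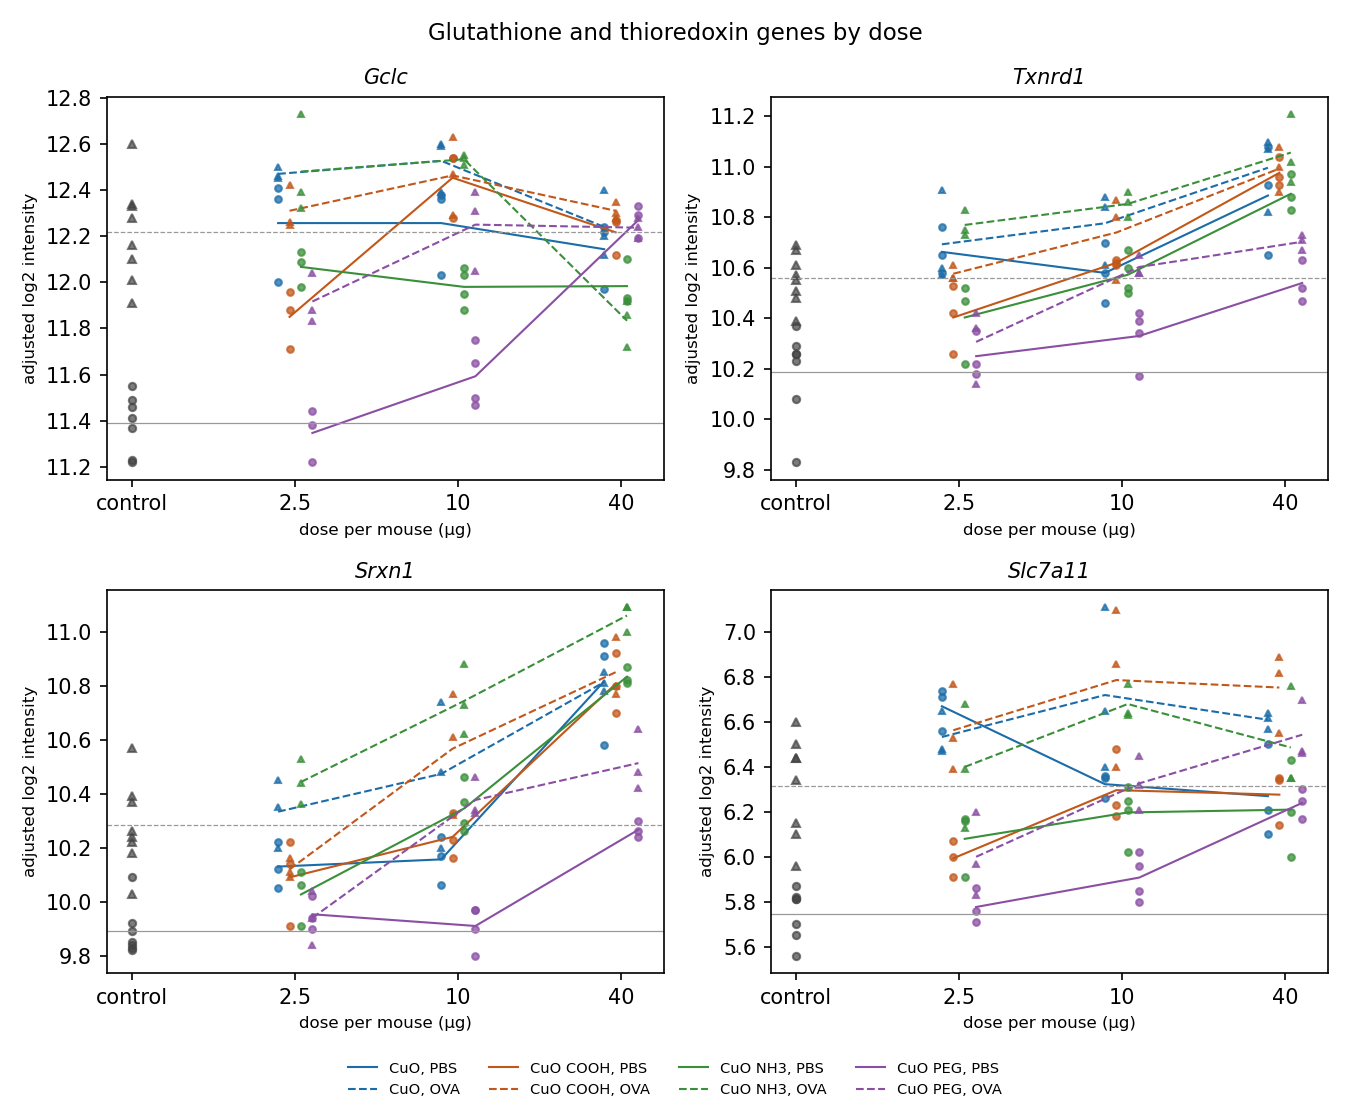
Adjusted log2 intensity (y axis) of Gclc, Txnrd1, Srxn1 and Slc7a11 by dose in μg/mouse (x axis, equally spaced); circles and solid lines are PBS-challenged, triangles and dashed lines OVA-challenged samples, lines join group means and horizontal lines are the control means. Srxn1 and Txnrd1 are highest at 40 μg, while Gclc of CuO, CuO COOH and CuO NH3 is at 40 μg no higher than at 10 μg.

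Against PBS controls, 35 of the 120 differences (10 genes in 12 comparisons) were called, all higher in exposed mice, where 4.41% of all gene and comparison pairs were called in either direction. Hmox1 accounted for 10 of them, Gclc for 8, Txnrd1 for 5, Slc7a11 for 4, Gclm and Srxn1 for 3 each and Prdx1 for 2. Nqo1, Gsr and Nfe2l2 had none. By group, core CuO had 1, 5 and 7 members called at 2.5, 10 and 40 μg, beside 0.812%, 2.46% and 7.82% of all genes called higher. CuO COOH had 1, 5 and 6, beside 0.336%, 2.49% and 5.97%. CuO NH3 had 2, 2 and 4, beside 0.821%, 2.57% and 7.36%. CuO PEG had 0, 0 and 2, beside 0%, 0.397% and 1.67%. With CuO PEG 2.5 no gene was called in either direction by limma, and 1005 of 22911 had an unadjusted p below 0.05. The median log2 fold change of the 10 genes was 0.84 with CuO 40 and with CuO COOH 40, 0.46 with CuO NH3 40 and 0.38 with CuO PEG 40, where the median of all genes was within 0.009 of 0.

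Hmox1 rose against PBS by log2 fold changes of 2.04 (SE 0.29, adjusted p = 0.000991), 3.31 (SE 0.35, 1.44e-05) and 3.96 (SE 0.33, 3.53e-08) with CuO at 2.5, 10 and 40 μg. With CuO COOH the log2 fold changes were 2.55 (adjusted p = 0.00403), 3.38 (1.05e-05) and 4.91 (1.53e-09). With CuO NH3 they were 1.14 (adjusted p = 0.0417), 1.24 (0.002) and 2.63 (1.42e-08). With CuO PEG only 40 μg passed, at 1.47 (SE 0.28, adjusted p = 0.00284), and the values at 2.5 and 10 μg were −0.43 (95% interval −1.08 to 0.22) and 0.17 (−0.17 to 0.51). The size of these values for the materials of slides 1 to 3 depended on the batch terms. With slide and position in place of array, CuO gave 2.23, 2.11 and 2.99, CuO COOH 1.12 (adjusted p = 0.232, not called), 1.72 and 2.81, CuO NH3 1.1, 1.3 and 2.67, and CuO PEG −0.05, 0.44 and 1.35. Of the 10 Hmox1 calls, 7 held whichever single sample was left out and under all alternative processings.

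**Figure D3:**
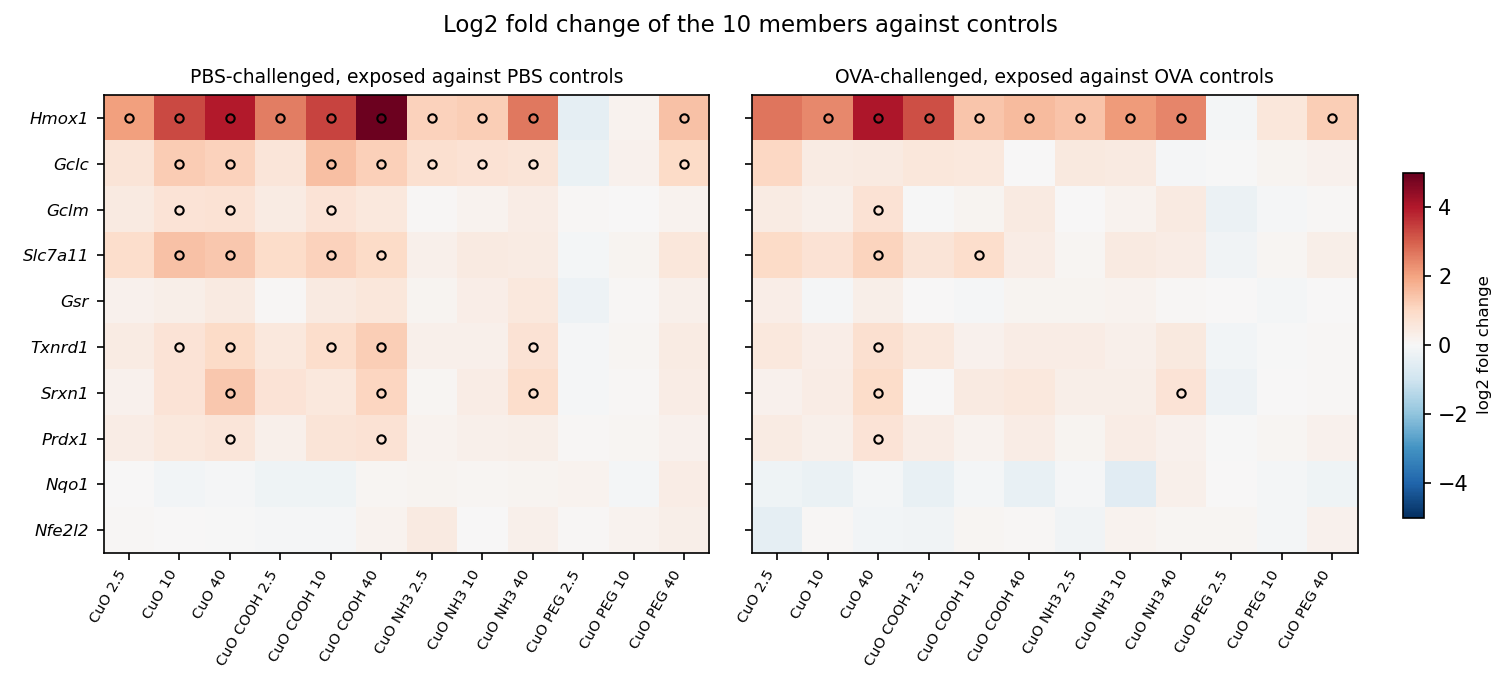
Log2 fold change (colour) of the 10 genes (rows) in each exposed group against its controls (columns, material and dose in μg/mouse), PBS-challenged on the left and OVA-challenged on the right; open circles mark called differences. Hmox1 has calls in 10 of 12 columns on the left and 9 of 12 on the right, and the rows of Nqo1, Gsr and Nfe2l2 have none.

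Among the glutathione genes, Gclc was called with CuO 10 (1.25, SE 0.23, adjusted p = 0.00209), CuO 40 (1.16), CuO COOH 10 (1.49) and 40 (1.19), with all 3 doses of CuO NH3 (0.8, 0.74 and 0.65) and with CuO PEG 40 (0.95, adjusted p = 0.0033). All 8 Gclc calls held with slide terms, which also called CuO 2.5 (0.87), and 2 held whichever sample was left out. Under every alternative 4 of the 8 held, those of CuO and CuO COOH. The CuO NH3 2.5, CuO NH3 10 and CuO PEG 40 calls were lost with only the controls of the same slides, all 3 CuO NH3 calls with replicate number as a block, and CuO NH3 40 also with loess and Aquantile normalization. Gclm was called with CuO 10 (0.68), CuO 40 (0.74) and CuO COOH 10 (0.68), and none of these 3 held with slide terms, where the values were 0.32, 0.43 and 0.38. Slc7a11 was called with CuO 10 (1.45) and 40 (1.36) and CuO COOH 10 (1.17) and 40 (0.97). Of these only CuO 10 was called with slide terms, at 0.58. The largest Gsr value was 0.55, and with CuO NH3 40 its 0.52 had an adjusted p of 0.0198 but lay under the fold threshold.

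Among the thioredoxin genes, Txnrd1 was called with CuO 10 (0.68) and 40 (0.94), CuO COOH 10 (0.86) and 40 (1.23, SE 0.17, adjusted p = 2.41e-05) and CuO NH3 40 (0.71). Its CuO 10 and CuO COOH 10 calls were lost with slide terms and with the brightest probe, with values as low as 0.34. The 3 Txnrd1 calls at 40 μg held under all alternative processings. Only that of CuO COOH 40 held whichever sample was left out. Srxn1 was called only at 40 μg, with CuO (1.34, SE 0.21, adjusted p = 6.35e-05), CuO COOH (1.06) and CuO NH3 (0.87, SE 0.15). Those 3 Srxn1 calls held under all alternative processings, with slide-term values of 0.93, 0.91 and 0.94. Prdx1 was called with CuO 40 (0.61) and CuO COOH 40 (0.71), and with slide terms these were 0.36 and 0.39. The 2 Txnrd1 probes were called in 3 and 6 of the 25 comparisons with or between controls, the 2 Slc7a11 probes in 6 and 3, and the 3 Prdx1 probes in 1, 0 and 4, so that a gene's call can rest on its more responsive probe.

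Nqo1 lay between −0.21 and 0.39 in the 12 comparisons, with no adjusted p below 0.412. Nfe2l2 lay between −0.06 and 0.46, with no adjusted p below 0.447. The number of calls depended most on 2 samples. Leaving out CuO 40 replicate 2 lowered the 35 calls to 20, with Gclc, Gclm, Prdx1, Slc7a11, Srxn1 and Txnrd1 of CuO 40 all lost and Txnrd1 falling from 0.94 to 0.49. Leaving out PBS replicate 1 ended 8 calls, in CuO COOH 10, CuO COOH 40 and CuO 40, and moved Hmox1 in CuO COOH 40 from 4.91 to 4.36 and Prdx1 there from 0.71 to 0.46. Without CuO COOH 10 replicate 3, Gclm in CuO COOH 10 was 0.44.

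**Figure D4:**
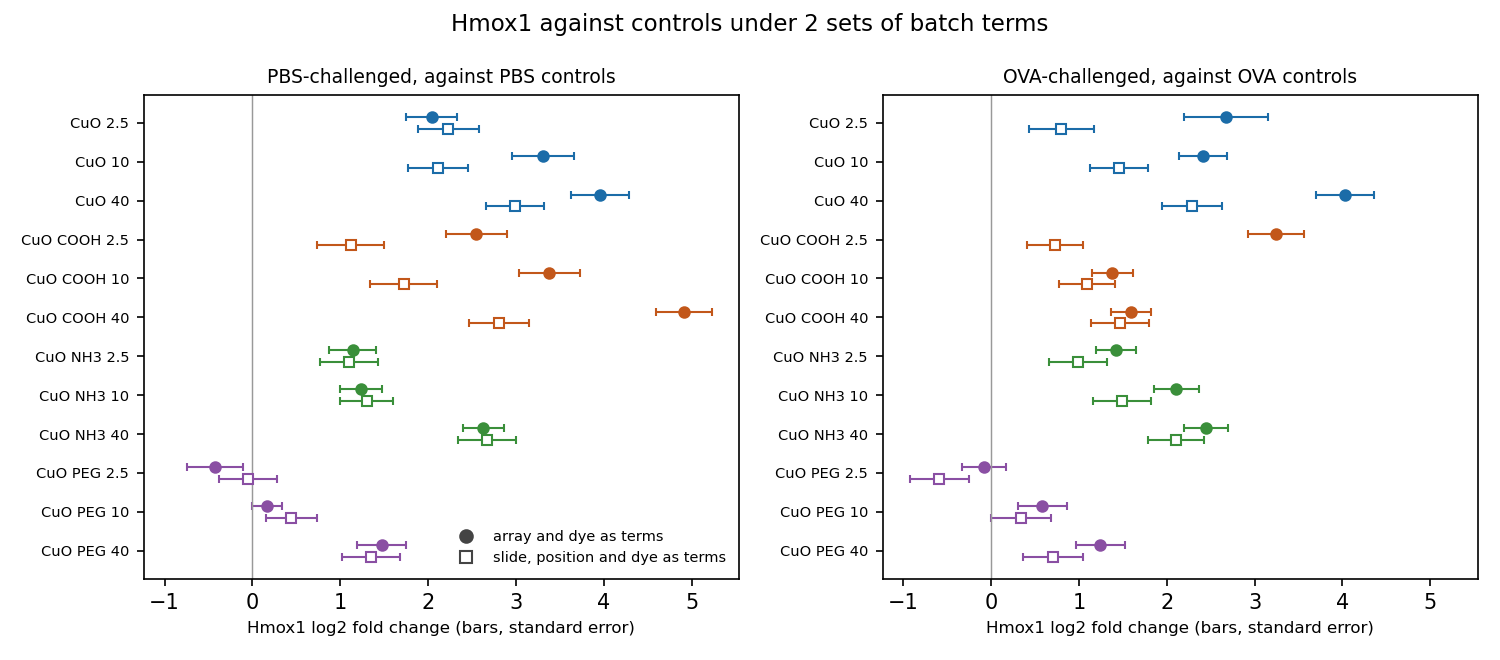
Hmox1 log2 fold change against controls (x axis) in the 12 exposed groups of each challenge (y axis, material and dose in μg/mouse), fitted with array and dye terms (filled circles) or with slide, position and dye terms (open squares); bars are 1 standard error. For CuO COOH 40 against PBS the values are 4.91 and 2.81, while for CuO NH3 40 they are 2.63 and 2.67.

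Against OVA controls, 16 of 120 differences were called, all higher in exposed mice, where 1.2% of all pairs were called in either direction. Hmox1 made up 9 of them, Srxn1 and Slc7a11 2 each, and Gclm, Txnrd1 and Prdx1 1 each. CuO had 0, 1 and 6 members called at 2.5, 10 and 40 μg, beside 0%, 0.21% and 0.969% of all genes called higher. CuO COOH had 1, 2 and 1, beside 0.0175%, 0.41% and 2.23%. CuO NH3 had 1, 1 and 2, beside 0.489%, 1.38% and 2.06%, and CuO PEG had 0, 0 and 1, beside 0%, 0% and 0.393%. No gene was called by limma in CuO 2.5 + OVA, CuO PEG 2.5 + OVA or CuO PEG 10 + OVA, where 913, 1781 and 1293 genes had an unadjusted p below 0.05. Gclc, called 8 times in PBS-challenged mice, had no call here, with values from −0.04 to 1.02 and a lowest adjusted p of 0.0945.

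Hmox1 rose in OVA-challenged mice with CuO 10 (2.41, SE 0.27, adjusted p = 0.000123), CuO 40 (4.03, SE 0.33, 2.37e-07), all 3 doses of CuO COOH (3.24, 1.38 and 1.59), all 3 doses of CuO NH3 (1.42, 2.11 and 2.45) and CuO PEG 40 (1.24, adjusted p = 0.0382). CuO 2.5 + OVA had 2.67 with an adjusted p of 0.281, a value that rests on 1 sample once array is a term. With slide terms, 5 of the 9 Hmox1 calls remained: CuO 10 (1.46), CuO 40 (2.29), CuO COOH 40 (1.47), CuO NH3 10 (1.49) and CuO NH3 40 (2.1). CuO COOH 2.5 + OVA, whose samples overlapped the controls, then had 0.73 (adjusted p = 0.57), and CuO PEG 40 + OVA 0.7 (0.316). Without OVA replicate 6, or without CuO NH3 2.5 + OVA replicate 2, CuO NH3 2.5 + OVA fell from 1.42 to 0.75. Without CuO PEG 40 + OVA replicate 3, the value of that group was 0.6, and without OVA replicate 7 it was 1.94.

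The other OVA-challenged calls lay mostly in CuO 40 + OVA: Gclm 0.71 (adjusted p = 0.0323), Txnrd1 0.8 (0.0186), Srxn1 0.92 (0.0206), Slc7a11 1.13 (0.0264) and Prdx1 0.69 (0.0372). Of these the Slc7a11 samples overlapped those of the OVA controls. None of the 5 held when CuO 40 + OVA replicate 1 or replicate 2 was left out, and with slide terms they were 0.48, 0.44, 0.53, 0.29 and 0.42, all below the fold threshold. Slc7a11 was also called in CuO COOH 10 + OVA (0.88), again with overlapping samples, and Srxn1 in CuO NH3 40 + OVA (0.69, adjusted p = 0.00961). The Srxn1 samples of CuO NH3 40 + OVA, at 11, 11.09 and 11.09, were all above the highest OVA control at 10.57, and the slide-term value was 0.78.

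OVA challenge without any material raised Hmox1 by 1.21 (SE 0.2, adjusted p = 0.000162) and Gclc by 0.67 (SE 0.13, adjusted p = 0.00112) against PBS controls, 2 of 10 members, where 5.22% of genes were called in either direction and 3.71% higher. All 8 OVA samples exceeded all 7 PBS samples in both genes. Slc7a11 had 0.49 with an adjusted p of 0.0422, under the fold threshold, and the others ranged from −0.11 for Nfe2l2 to 0.34 for Srxn1 and Gsr. Within the controls of slides 1 to 3, Hmox1 was 1.13, Gclc 0.67 and Slc7a11 0.59, all called. Within those of slides 4 to 6, Hmox1 was 1.5 (adjusted p = 0.0699) and Gclc 0.61 (0.277), with no call. Without OVA replicate 3 or PBS replicate 2 the Gclc call was lost.

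The materials were compared at equal mass dose and challenge in 24 pairs: each functionalized form with core CuO, and CuO NH3 with CuO PEG, with slide and position as terms. Of 240 member differences 11 were called, where 0.923% of all pairs were. CuO PEG carries a polyethylene glycol coating, and at equal mass it also holds less copper than core CuO and differs in dissolution, which cannot be told apart from the coating here. It had lower Hmox1 than core CuO in PBS-challenged mice at 2.5 μg (−2.28, 95% interval −3.19 to −1.36, adjusted p = 0.0015), 10 μg (−1.67, −2.51 to −0.84, 0.0215) and 40 μg (−1.65, −2.51 to −0.78, 0.00667). At 2.5 μg Gclc (−0.91) and Slc7a11 (−0.89) were lower too, and at 10 μg Gclc (−0.66). The share of all genes called lower in these 3 pairs was 1.43%, 0.89% and 2.37%. At 40 μg Gclc was not called between CuO PEG and CuO, at 0.13 (−0.18 to 0.44). The calls at 10 μg were lost without CuO 10 replicate 2 or 3 or CuO PEG 10 replicate 2, that of Hmox1 also without CuO PEG 10 replicate 4, and the Hmox1 call at 40 μg without CuO 40 replicate 2 (−1.31, adjusted p = 0.0936). In OVA-challenged mice CuO PEG had Hmox1 differences from CuO of −1.39, −1.12 and −1.59, with intervals of −2.43 to −0.35, −2.06 to −0.18 and −2.53 to −0.65, none of them called with slide terms. With array terms the difference at 40 μg + OVA was called, at −2.79 (SE 0.42, limma, adjusted p = 0.017).

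CuO NH3 and CuO PEG lay on the same slides. Hmox1 was higher with CuO NH3 at 40 μg (1.32, 0.56 to 2.08, adjusted p = 0.00966), at 2.5 μg + OVA (1.57, 0.85 to 2.3, 0.00269) and at 40 μg + OVA (1.4, 0.64 to 2.15, 0.0156), and Gclc at 2.5 μg (0.72, 0.45 to 0.98, 0.00021). Of all genes, 2.7%, 1.29%, 0.703% and 1.28% were called higher in these pairs. In PBS-challenged mice Hmox1 was not called at 2.5 or 10 μg with slide terms. Array terms called it at both doses, at 1.57 (limma, adjusted p = 0.0157) and 1.07 (0.0183). The authors' normalized values also called it at 2.5 μg, at 1.16 (limma, adjusted p = 0.0485). The Hmox1 call at 40 μg + OVA was lost without any 1 of 4 of its 6 samples (CuO NH3 40 + OVA replicates 2 and 3, CuO PEG 40 + OVA replicates 1 and 2) and with array terms (1.21, adjusted p = 0.189). The Hmox1 call at 40 μg in PBS-challenged mice was lost without CuO PEG 40 replicate 2. Srxn1 differed between CuO NH3 and CuO PEG by 0.43 at 10 μg and 0.57 at 40 μg, with adjusted p of 0.00255 and 0.000388 but below the fold threshold.

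Core CuO and CuO COOH, also hybridised on shared slides, had no Hmox1 call between them with slide terms. CuO COOH minus CuO was −1.11 (−1.84 to −0.38) at 2.5 μg, −0.39 (−1.14 to 0.36) at 10 μg and −0.18 (−0.9 to 0.54) at 40 μg in PBS-challenged mice. The interval at 40 μg thus spans 0.9 lower to 0.54 higher, and these values do not show that the materials act alike. In OVA-challenged mice, array terms called Hmox1 lower with CuO COOH than with CuO at 40 μg (−2.44, SE 0.36, limma, adjusted p = 0.0122). ComBat gave −2.39 there and −1.01 at 10 μg + OVA, but 0.92 at 40 μg in PBS-challenged mice, all called. The 1 member called with slide terms was Slc7a11 at 2.5 μg (−0.68, adjusted p = 0.0346, with 0.144% of genes called lower). That call was lost whichever of its samples was left out and was 0.07 with array terms. CuO NH3 and CuO had no called member. Their Hmox1 difference was −1.12 (−2.07 to −0.18) at 2.5 μg, −0.81 (−1.66 to 0.03) at 10 μg and −0.32 (−1.2 to 0.56) at 40 μg.

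**Figure D5:**
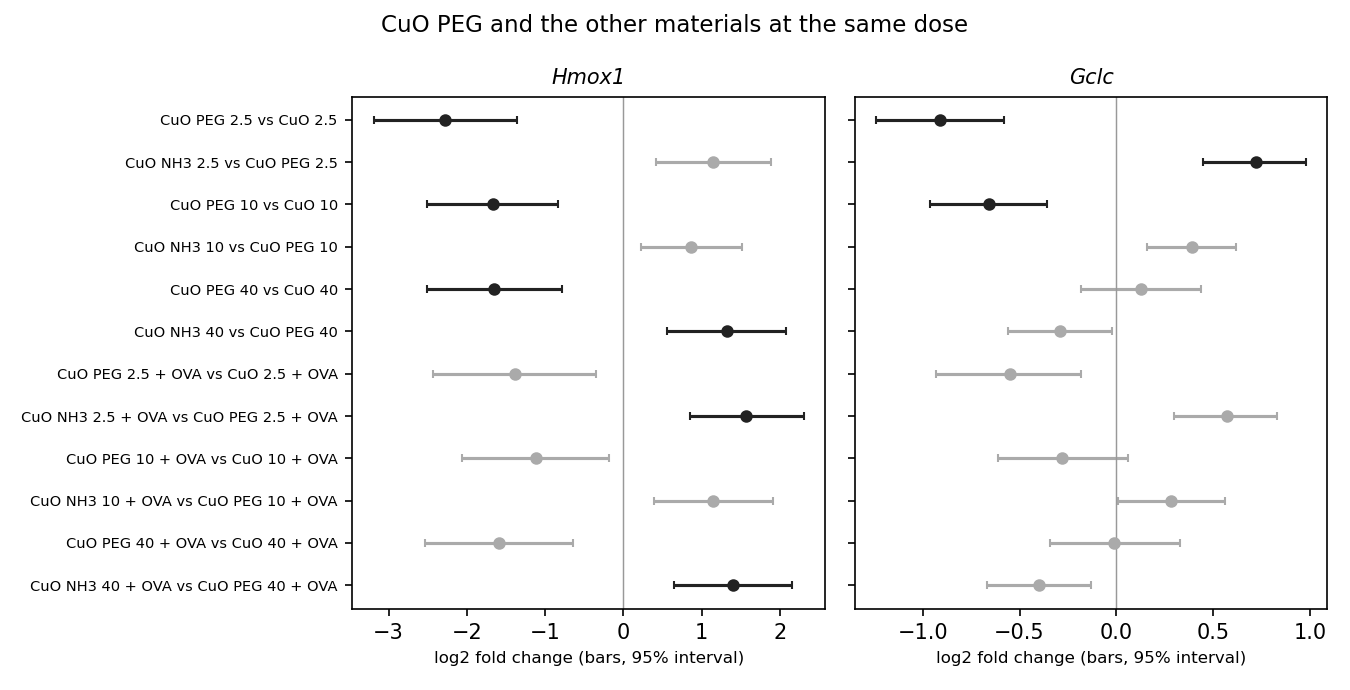
Log2 fold change with 95% interval (x axis) of Hmox1 and Gclc in the 12 pairs that involve CuO PEG at the same dose and challenge (y axis); dark points are called, grey ones are not. Hmox1 differences range from 0.86 to 2.28 log2 units in size, with CuO PEG the lower material throughout and 6 of the 12 called, and Gclc is called at 2.5 and 10 μg in PBS-challenged mice and at no dose of 40 μg.

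Whether the exposure effect differed between challenges was tested as the effect in OVA-challenged minus that in PBS-challenged mice. Of 120 differences 4 were called, all negative and all in CuO COOH, where 0.346% of all pairs were called. In CuO COOH 10 Hmox1 was called (−2, SE 0.41, adjusted p = 0.0345, with 0.236% of genes called lower). In CuO COOH 40 Hmox1 (−3.32, SE 0.38, adjusted p = 6.51e-05), Gclc (−1.17, 0.018) and Txnrd1 (−0.86, 0.0354) were called, with 1% of genes called lower. The Hmox1 and Txnrd1 values depended on the batch terms: with slide terms Hmox1 was −0.63 in CuO COOH 10 and −1.35 (adjusted p = 0.0663) in CuO COOH 40, and Txnrd1 −0.35. Without PBS replicate 1, which shared an array with CuO COOH 2.5 + OVA replicate 1, Hmox1 was −1.62 (adjusted p = 0.423) and −2.81 (0.037). Without CuO COOH 2.5 + OVA replicate 1, 1 of the 4 calls was left. For Gclc, slide terms gave calls at 40 μg in all 4 materials, −0.73 for CuO (adjusted p = 0.000795), −0.73 for CuO COOH (0.00164), −0.98 for CuO NH3 (9.56e-06) and −0.86 for CuO PEG (0.000693), where array terms gave −0.73, −1.17, −0.69 and −0.75 with only CuO COOH called. In the adjusted levels, Gclc at 40 μg lay above the controls in PBS-challenged mice and, for CuO NH3 + OVA, at 11.92, 11.86 and 11.72, around or below the lowest OVA control at 11.91.

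From 2.5 to 40 μg of the same material, 7 of 80 member differences were called, all higher at 40 μg and all in PBS-challenged mice, where 2.17% of all pairs were called. Hmox1 rose with CuO (1.92), CuO COOH (2.36), CuO NH3 (1.49) and CuO PEG (1.9), Srxn1 with CuO (1.1) and CuO NH3 (0.76), and Gclc with CuO PEG (1.28). Of all genes 2.56%, 0.711%, 4.03% and 2.64% were called higher in CuO, CuO COOH, CuO NH3 and CuO PEG. The CuO value of Hmox1 was 0.77 (adjusted p = 0.158) with slide terms and was lost without CuO 40 replicate 2. The Gclc value of CuO PEG fell to 0.83 (adjusted p = 0.242) without CuO PEG 2.5 replicate 3, which also ended the Hmox1 call, and the CuO COOH call of Hmox1 was lost without CuO COOH 2.5 replicate 3 or CuO COOH 40 replicate 1. The Srxn1 call of CuO was lost without CuO 40 replicate 2 or CuO 2.5 replicate 3. That of CuO NH3 was lost without CuO NH3 2.5 replicate 3 or CuO NH3 40 replicate 3. With slide terms Srxn1 was called in CuO COOH as well, at 0.71. In OVA-challenged mice no member was called for dose with array terms, but 6 differences were with slide terms: Hmox1 with CuO (1.48, adjusted p = 0.00359), CuO NH3 (1.11, 0.0409) and CuO PEG (1.29, 0.0417), Srxn1 with CuO COOH (0.73) and CuO NH3 (0.62), and a lower Gclc with CuO NH3 (−0.65, 0.000413). With array terms Hmox1 had 1.36 with CuO, 1.03 with CuO NH3, 1.32 with CuO PEG and −1.65 (adjusted p = 0.114) with CuO COOH, where the adjusted levels ran the other way, with a mean of 12.52 at 40 μg, and the samples of both doses overlapped.

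Keap1 and Bach1, whose proteins restrain Nrf2 and its targets, were called in no comparison with controls. Keap1 lay between −0.28 and 0.27, and Bach1 between −0.57 and 0.28 in these 24 comparisons. Of 13 listed regulators, 1 was called higher and 2 lower with CuO 40 against PBS (the small Maf gene Maff 0.97, Bach2 −0.64, and Btrc, a ubiquitin ligase subunit, −0.64), 0 and 2 with CuO COOH 40, 1 and 0 with CuO NH3 40 (Maff 0.72) and none with CuO PEG 40. In OVA-challenged mice none was called at 40 μg. The shares of all genes called in these 4 comparisons were 7.82%, 5.97%, 7.36% and 1.67% higher and 6.23%, 4.3%, 5.87% and 0.511% lower, so that 1 of 13 higher is near the share of all genes. The medians of the list were −0.25 to −0.09 at 40 μg against PBS, where the medians of all genes were within 0.009 of 0.

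Other genes known as Nrf2 targets went both ways. Of 34 measured, 9 were called higher and 6 lower with CuO 40 against PBS, 8 and 6 with CuO COOH 40, 8 and 6 with CuO NH3 40 and 1 and 2 with CuO PEG 40, where 7.82%, 5.97%, 7.36% and 1.67% of all genes were called higher and 6.23%, 4.3%, 5.87% and 0.511% lower. With CuO 40 the 3 largest changes were falls, of Cyp2a5 (a cytochrome P450, −2.84), Gstm1 (a glutathione S-transferase, −2.08) and Ephx1 (microsomal epoxide hydrolase, −1.81). Cyp2a5 and Gstm1 fell with all 4 materials at 40 μg, with −4.09 and −1.87 for CuO NH3 and −2.28 and −1.06 for CuO PEG. Akr1b8, an aldo-keto reductase, rose by 1.92 with CuO NH3 40 and by 1.13 with CuO PEG 40. OVA challenge alone called 0 higher and 6 lower, led by Cyp2a5 (−1.87), Gstm1 (−1.05) and Gsta3 (−0.94). It called 3.71% of all genes higher and 1.5% lower. Of the 5 club cell markers 2, 3, 4 and 0 fell at 40 μg of CuO, CuO COOH, CuO NH3 and CuO PEG, with medians of −1.73, −2.26, −2.23 and −0.63. Their summed linear intensity was 327000 to 503000 in the PBS samples and 119000 to 169000 in CuO NH3 40, and their part in the falls above was not tested.

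Of 16 further glutathione genes 2 rose and 1 fell with CuO 40 against PBS, 4 and 1 with CuO COOH 40, 2 and 0 with CuO NH3 40 and none with CuO PEG 40, with Glrx (glutaredoxin) at 1.39, 1.44 and 1.04. Beside the 7.82% of all genes called higher and 6.23% lower with CuO 40, 5.97% and 4.3% with CuO COOH 40 and 7.36% and 5.87% with CuO NH3 40, the CuO 40 counts of this list are near the shares of all genes. For CuO PEG 40 the shares of all genes were 1.67% higher and 0.511% lower. Of 13 further peroxide and superoxide enzymes, 2 rose and 5 fell with CuO 40, led by Sod2 (mitochondrial superoxide dismutase, 1.51), Cat (catalase, −1.16) and Txnip (−1.13). The listed haem and iron genes rose without a fall: 7 of 12 with CuO 40, 8 with CuO COOH 40, 8 with CuO NH3 40 and 2 with CuO PEG 40. With CuO 40 these were led by Lcn2 (lipocalin 2, 4), Hp (haptoglobin, 2.6) and Hpx (hemopexin, 1.82). Fth1, the ferritin heavy chain and itself a Nrf2 target, rose by 1.73, 1.58 and 1.1 with CuO 40, CuO COOH 40 and CuO NH3 40.

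The metallothioneins Mt1 and Mt2, which bind copper and zinc and are induced through the metal-responsive factor MTF-1, were each called higher against PBS in 10 of 12 groups, all but CuO PEG 2.5 and CuO PEG 10. Mt2 had 2.27, 2.69 and 4.14 with CuO, 1.69, 3 and 3.54 with CuO COOH, 1.45, 2.35 and 3.21 with CuO NH3 and −0.2, 0.18 and 1.85 with CuO PEG. Mt1 had 1.22, 1.72 and 2.61 with CuO and 0.8 with CuO PEG 40. The 12 comparisons share their PBS controls. OVA challenge alone raised Mt1 by 0.81 and Mt2 by 1.7. Of the 12 listed copper and metal genes, which include these, 3, 3, 2 and 3 were called higher at 40 μg of CuO, CuO COOH, CuO NH3 and CuO PEG. Called lower were 1, 1, 1 and 0, and the list medians were 0.13, 0, 0.02 and 0.02. Of all genes 7.82%, 5.97%, 7.36% and 1.67% were called higher and 6.23%, 4.3%, 5.87% and 0.511% lower. Against OVA controls 2 of the 12 were called higher at 40 μg of each material, and 0 with CuO 2.5, CuO COOH 2.5 or CuO PEG 2.5. Of all genes, 0.969%, 2.23%, 2.06% and 0.393% were called higher there at 40 μg of CuO, CuO COOH, CuO NH3 and CuO PEG. In those 2.5 μg groups the shares were 0%, 0.0175% and 0%, so that no call in the list is near the share of all genes.

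Markers of blood, immune and other lung cells moved with the same groups, and their part in the changes of the 10 genes was not tested. Against PBS, 7.82%, 5.97%, 7.36% and 1.67% of all genes were called higher at 40 μg of CuO, CuO COOH, CuO NH3 and CuO PEG. The shares called lower were 6.23%, 4.3%, 5.87% and 0.511%. CuO 10 called 2.46% higher and OVA challenge alone 3.71%. In lists this short, 1 called marker cannot be told from such shares. Of 9 neutrophil markers measured, 5 rose and 1 fell with CuO 40 against PBS (median 2.25), 2 rose with CuO COOH 40 (0.53), 5 rose and 1 fell with CuO NH3 40 (1.2) and none was called with CuO PEG 40 (0.46). Their summed linear intensity was 71800 to 94500 in the PBS samples, 68200 to 76400 in CuO COOH 40 and 88400 to 120000 in CuO NH3 40. Of 10 monocyte and macrophage markers, 5, 6, 6 and 3 rose with 40 μg of CuO, CuO COOH, CuO NH3 and CuO PEG, and 8 rose with OVA challenge alone (median 1.22). Their sums were 47300 to 61400 in PBS, 53600 to 60300 in CuO 40 and 56500 to 64000 in OVA samples. Of 10 alveolar macrophage markers 6, 4, 4 and 4 fell at 40 μg of CuO, CuO COOH, CuO NH3 and CuO PEG, and 1 rose with CuO COOH, with medians of −1.13, −0.17, −0.78 and −1.11 and sums of 26000 to 39000 in PBS and 10700 to 12400 in CuO 40. The 6 erythrocyte markers had medians of −3.33, −2.67, −1.97 and −0.85, with sums of 339000 to 496000 in PBS samples and 66300 to 106000 in CuO 40. Of 6 endothelial markers 5 fell with CuO 40, CuO COOH 40 and CuO NH3 40 (medians −1.37, −1.01 and −1.09) and none was called with CuO PEG 40, and their sums were 60400 to 87600 in PBS and 34500 to 40200 in CuO 40. Of 6 ciliated cell markers 3 rose with CuO 10 (median 0.98), 5 with CuO 40 (0.99) and 1 with CuO COOH 40 (0.25), and 1 fell with CuO NH3 40 (0.01), with sums of 11600 to 13600 in PBS and 17000 to 19200 in CuO 40. Of 6 T cell markers 3 fell with each of CuO 40, CuO COOH 40 and CuO NH3 40 (medians −0.84, −0.73 and −0.64), with sums of 1980 to 2850 in PBS and 1210 to 1440 in CuO 40.

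Across the 26 group means, Hmox1 was most like Txnrd1 among the 10 genes (Pearson's r = 0.96), and Txnrd1 was most like Srxn1 after it (0.95). The correlation of Hmox1 was 0.89 with Prdx1, 0.88 with Srxn1, 0.84 with Gsr, 0.83 with Slc7a11, 0.81 with Gclm, 0.67 with Gclc, 0.15 with Nqo1 and −0.33 with Nfe2l2. Gclc and Slc7a11 had 0.83 with each other, while Gclc and its partner subunit Gclm had 0.33. Among all other genes, the likest to Hmox1 were Pgd (0.958), Rnh1 and Pgam1 (both 0.943), and Pgd, 6-phosphogluconate dehydrogenase, is another gene of the target list. Txnrd1 was likest to the proteasome gene Psmb5 (0.963), Pole3 (0.96) and Commd1 (0.956), Gsr to the proteasome gene Psma4 (0.956), Exosc8 and Sapcd2 (both 0.955), and Gclm to Psmd1 (0.914), Mrps17 (0.907) and Mrpl37 (0.899). Srxn1 was likest to Mrps7 (0.966), Memo1 (0.956) and Faf2 (0.955), Prdx1 to Hsd17b12 (0.905), Eepd1 (0.904) and Scarb2 (0.901), and Slc7a11 to the chemokine gene Ccl4 (0.917), Traf3 (0.907) and Ptafr (0.895). Gclc was likest to Muc4 (0.911), Pcx (0.908) and Proz (0.907), Nfe2l2 to Tpm4 (0.914), Rab3ip (0.885) and Cldn12 (0.876), and Nqo1 to Efcab7 (0.747), Nubpl (0.682) and Ddr1 (0.669). These values describe 26 means that share arrays and normalization.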

How the data were processed

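Lung RNA pools were hybridised to 2-colour mouse arrays as 89 samples on 46 arrays. The authors deposited scanner output in which each spot has median foreground and background intensities, read with Agilent Feature Extraction 12.0.2.2 per the file headers. A second file, deposited with it, gives the authors' own normalized values on a log2 scale, whose centring is not stated (column medians 6.48 to 6.51), and all 89 of its columns matched the sample's own channel best. That table was used only as an alternative.

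From the scanner output, log2 of the median foreground of the sample's own dye was taken without background subtraction. The 3671 control spots of 62976 and flagged outlier spots were left out, samples were quantile-normalized, and spots were averaged to 56605 probes. Of these, 32994 were named by RefSeq accession (GRCm38.p6) and averaged to 22911 genes. limma 3.58.1 in R 4.3.3 fitted dye and array with the groups, or dye, slide and array position for comparisons between materials, with Benjamini-Hochberg adjustment over all genes. The script was tested on simulated data. Each group was compared with its controls, with the other materials and across doses and challenges.

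The 10 genes and the gene lists were chosen with earlier results of these data known. All 10 genes were tested in every comparison, and those not called were given values in only some of them. Keap1 and Bach1 were described against controls, and Mt1 and Mt2 against PBS controls and for OVA challenge alone. Of each list described, the called genes with the largest changes were named, at most 3 a comparison. Likeness was Pearson's r over group means. Pools are separate samples by the labels, and p-values measure the spread between these pools, whose small number limits precision. Gsta1, Ly6g, Rtkn2 and Hbb-bs of the lists were not measured here. Alternatives were normexp background correction (offset 50), loess and Aquantile, probes above background in at least 3 samples, the log2 table, ComBat for array, array as a random block, the other batch terms, a replicate block, controls of the same slides, the brightest probe and each sample left out.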

Additional observations from a re-analysis of the deposited data

Results flagged for a closer look

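In 40 combinations of a gene and a group of 4 to 10 samples, 3 had a sample that stood apart from the rest by Dixon's test, where chance gives about 1 in 20. Hmox1 in PBS replicate 1 was 7.63, with the nearest PBS sample at 9.35. Srxn1 in PBS replicate 2 was 10.09, with the nearest at 9.92. Gsr in CuO PEG 10 replicate 1 was 11.11, with the nearest at 10.98. The Hmox1 calls against PBS all held without PBS replicate 1.

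The effect of CuO COOH differed between challenges by the interaction test in limma. Hmox1 differed by -2.00 at 10 μg (adjusted p = 0.0345) and by -3.32 at 40 μg (6.51e-05). At 40 μg Gclc differed by -1.17 (adjusted p = 0.018) and Txnrd1 by -0.86 (0.0354). Of these 4, only the Gclc difference was called with slide terms.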

How the results depend on the processing

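Of the 75 called differences, 46 were called with the other batch terms, 39 under every alternative processing, 24 whichever single sample was left out and 20 under all of these. Calls against OVA controls went from 16 to 10 with array as a random block and to 6 with slide terms. Calls between materials went from 11 to 46 with ComBat. Calls for dose went from 7 to 12 with array as a random block and to 13 with slide terms, where 6 of the added calls were in OVA-challenged mice and 1 of these was a fall. Calls for the difference between challenges went from 4 to 2 with loess and Aquantile normalization and to 7 with slide terms, and calls for OVA against PBS controls from 2 to 0 with the controls of slides 4 to 6 only, which are fewer samples. Slc7a11 in CuO COOH 2.5 against CuO 2.5 reversed from −0.68 to 0.05 with ComBat and 0.07 with array terms. Apart from the fewer controls, the cause was not tested. With 1 sample left out, the counts ran from 20 to 37 against PBS (lowest without CuO 40 replicate 2), 11 to 17 against OVA, 1 to 3 for OVA against PBS, 9 to 14 between materials, 1 to 4 for the difference between challenges and 5 to 9 for dose. A left-out sample can leave a comparison resting on few shared arrays. Low signal limits Slc7a11, which lay near background, and may limit Nqo1, which was dim but well above background in 87 of 89 samples.

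With the replicate number as a block, 26 calls were made against PBS, 14 against OVA, 2 for OVA against PBS, 14 between materials, 6 for the difference between challenges and 13 for dose. Of the 35 calls against PBS, 21 held with this block. Of 74 same-numbered pairs 23 had correlated deviations above 0.1 (range −0.28 to 0.34, median 0.035). As 24 of the pairs also shared a slide, these values do not settle whether the numbers pair the samples.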
